A study of Mus musculus with 6 samples.

Results

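A set of 10 marker genes of liver injury, progenitor cells and cancer was examined in CMRtdT liver tumors: *Ly6d*, *Lcn2*, *Cd24a*, *Spp1*, *Golm1*, *Tff3*, *Prom1*, *Epcam*, *Krt7* and *Krt19*. They were taken by name, are 10 of the 35683 genes that had a transcript in the expression tables, and all 10 had counts. RNAseq was performed on 6 macroscopic tumors, tumors 1 to 3 of mouse 2 and tumors 1 to 3 of mouse 1. Both mice were males and carried a conditional *Ctnnb1* allele whose exon 3 is flanked by loxP sites, the MUP-uPA transgene, which drives urokinase in hepatocytes from the major urinary protein promoter, and a tdTomato reporter at the *Rosa26* locus. Both ate high-fat food from an age of 6 weeks and were given AAV8-TBG-Cre through the tail vein at 8 weeks, a vector whose promoter directs Cre to hepatocytes and so sets the activating *Ctnnb1* deletion there, and the tumors were excised 6.5 months later. All 6 tumors therefore share the allele, the transgene, the diet and the time. No normal liver and no untreated mouse was analysed here, so the levels below are not levels relative to liver. The only contrast between groups is mouse 2 against mouse 1, which compares 2 animals, and its p-values measure the spread between tumors of 1 animal.

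The genes share a history in liver research rather than a function. When hepatocytes are damaged, cells with features of bile duct epithelium appear in the parenchyma, and the bile duct keratins, EpCAM, CD24, prominin 1 and osteopontin are widely used to recognise them. Lipocalin 2 is released by hepatocytes in injury and infection, and GOLM1 and osteopontin have been followed as blood markers of liver cancer. Their products sit in different places. *Ly6d*, *Cd24a*, *Prom1* and *Epcam* encode cell surface proteins, *Lcn2*, *Spp1* and *Tff3* encode secreted proteins, *Golm1* encodes a membrane protein of the Golgi apparatus, and *Krt7* and *Krt19* encode intermediate filament proteins inside the cell, so only 4 of the 10 are surface markers. On GRCm38.p6, *Spp1* lies on chromosome 5 from 104435111 to 104441053 and *Prom1* on the same chromosome from 43993621 to 44102047, *Tff3* on chromosome 17 from 31125306 to 31129611 and *Epcam* on that chromosome from 87635979 to 87651127. *Golm1* lies on chromosome 13 from 59634996 to 59675784, *Krt7* on chromosome 15 from 101412403 to 101427806 and *Krt19* on chromosome 11 from 100140810 to 100145926.

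The upstream sequences of 3 members are shown because these genes had different patterns over the tumors, *Lcn2* being low in 1 tumor and *Spp1* and *Epcam* being lower in every tumor of mouse 2. Each is the 250 bases before the RefSeq transcription start on GRCm38.p6, 5′ to 3′ on the strand of the gene, in lower case. The windows are chr2:32387740-32387989 on the minus strand for *Lcn2*, chr5:104434861-104435110 on the plus strand for *Spp1* and chr17:87635729-87635978 on the plus strand for *Epcam*.
Lcn2: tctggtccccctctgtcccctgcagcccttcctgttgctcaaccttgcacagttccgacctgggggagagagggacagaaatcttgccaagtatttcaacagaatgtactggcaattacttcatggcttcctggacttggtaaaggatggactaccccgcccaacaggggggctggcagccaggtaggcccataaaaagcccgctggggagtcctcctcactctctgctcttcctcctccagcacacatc
Spp1: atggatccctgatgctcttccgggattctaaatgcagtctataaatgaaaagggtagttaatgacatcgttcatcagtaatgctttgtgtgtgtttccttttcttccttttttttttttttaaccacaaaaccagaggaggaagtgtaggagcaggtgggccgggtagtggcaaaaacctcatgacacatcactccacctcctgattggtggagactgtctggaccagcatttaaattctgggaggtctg
Epcam: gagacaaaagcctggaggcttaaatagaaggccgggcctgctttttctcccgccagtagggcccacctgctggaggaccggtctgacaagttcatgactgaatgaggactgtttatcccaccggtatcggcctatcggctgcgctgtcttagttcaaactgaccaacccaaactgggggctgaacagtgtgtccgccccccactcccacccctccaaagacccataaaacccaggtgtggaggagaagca
Such windows were at hand for 6 of the 10 members, 8 windows in all, and not for *Ly6d*, *Cd24a*, *Tff3* and *Krt19*. Both strands were searched for 3 kinds of motif: the TCF/LEF motif as CTTTGAT and as CTTTGAA, the AP-1 motif as TGANTCA, and the NF-kB motif in a degenerate and a specific form of 10 letters each. None of these was in the 3 windows printed, which says nothing of the factors. The only matches among the 8 windows were AP-1 motifs in the windows of the 2 *Prom1* starts, TGACTCA beginning 88 bases before one start and TGAATCA 189 bases before the other. Over the 32851 RefSeq windows of the same length, TGANTCA was in 6.75%, CTTTGAT in 3.21%, CTTTGAA in 4.46% and the degenerate and the specific NF-kB form in 1.21% and 0.0426%.

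One library stood apart from the rest. Tumor 1 of mouse 1 had the highest level of the 6 tumors for 58.9% of the 19390 genes with a count and the lowest for 16.7%, and its hepatocyte markers were low, with *Alb* at 701.5 TPM (a transcript level scaled for length and depth) and the other 5 tumors between 8348 and 16603 TPM. Its totals were not short, since the 6 tumors had 19130532 to 27681766 estimated counts and this one had 21604769. The fold changes of the members between the mice, and some of their means and spans, are therefore given with and without it. Some other results, the nearest patterns among them, used all 6 tumors and were not repeated without it. Tumors 2 and 3 of mouse 1 were much alike, with a median chi-square of 1.38 per gene between them against 6.18 to 204 in the other 14 pairs, but sampling alone gives 0.455, so they were kept as 2 samples. Mitochondrial genes took 12.9% to 18.4% of the counts in mouse 2 and 6.90% to 8.38% in mouse 1, and with TPM rescaled without these genes the mean of *Ly6d* was 1447 TPM rather than 1019 TPM and that of *Golm1* 7.04 TPM rather than 5.18 TPM, while the members counted below as highest or lowest in tumor 1 of mouse 1, or not overlapping between the mice, were the same.

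The levels of the 10 genes spread from the most abundant mRNAs of the tumors to the limit of detection. *Ly6d* averaged 1019 ± 707 TPM (SD, n = 6), *Lcn2* 105 ± 54.5 TPM, *Cd24a* 45.3 ± 94.0 TPM and *Spp1* 19.2 ± 13.8 TPM. *Tff3* followed with 5.45 ± 3.04 TPM and *Golm1* with 5.18 ± 1.53 TPM, and the last 4 were *Krt19* at 1.60 ± 1.79 TPM, *Epcam* at 0.863 ± 0.739 TPM, *Krt7* at 0.810 ± 1.40 TPM and *Prom1* at 0.765 ± 0.567 TPM. *Ly6d* exceeded *Lcn2* in every tumor, whereas *Cd24a* and *Spp1*, *Tff3* and *Golm1*, and the last 4 genes among themselves differed by less than their spread over the tumors. Without tumor 1 of mouse 1 the mean of *Cd24a* was 7.02 ± 7.29 TPM (n = 5), below the 16.5 ± 13.5 TPM of *Spp1*, so the order of these 2 genes rests on that tumor. It also carried the means of the duct keratins, which without it were 0.900 ± 0.579 TPM for *Krt19* and 0.247 ± 0.254 TPM for *Krt7*.

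**Figure D1:**
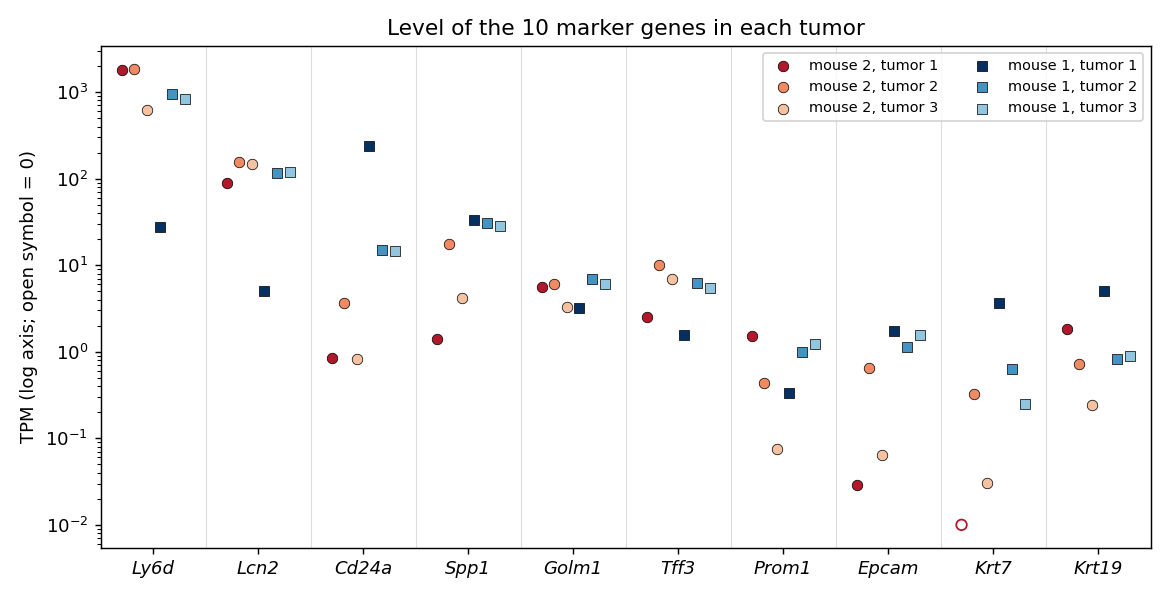
Level of each of the 10 marker genes in TPM on a log axis, with circles for the 3 tumors of mouse 2, squares for the 3 tumors of mouse 1 and an open symbol for a level of 0. *Ly6d* is high in 5 tumors (626 to 1859.8 TPM), and *Lcn2* has similar levels in these 5. Both lie far lower in tumor 1 of mouse 1 (27.5 and 5.0 TPM), where *Cd24a* has its highest level (237 TPM).

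*Ly6d* encodes a small GPI-anchored protein of the Ly6 family, known on keratinocytes and as a mark of early B cell commitment. In mouse 2, tumors 1, 2 and 3 had 1805, 1859.8 and 626 TPM, and those of mouse 1 had 27.5, 955 and 841 TPM. It was thus high in 5 tumors, where it ranked between the 49th and the 187th most abundant gene, and low in tumor 1 of mouse 1, where it ranked 4105th, and the 2 mice overlapped. The lowest of the other 5 tumors had 22.8 times the level of tumor 1 of mouse 1, and among those 5 tumors the highest was 2.97 times the lowest. All of these reads were assigned to a single transcript of 744 bases (gene on chromosome 15, 74762056 to 74763567, GRCm38.p6). In bulk tumors, fewer cells that carry a transcript and less of it per cell cannot be told apart, for this gene and for all that follow.

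The mean of *Ly6d* was 1430.4 ± 697 TPM in mouse 2 and 608 ± 506 TPM in mouse 1 (SD, n = 3 each). The fold change of mouse 2 over mouse 1 was 1.74 on the log2 scale (SE 1.23, 95% interval −1.27 to 4.75) and did not pass edgeR's quasi-likelihood test (adjusted p = 0.644). Without tumor 1 of mouse 1 it was 1.17 (SE 0.41, 95% interval 0.17 to 2.18, adjusted p = 0.196 by edgeR), and there DESeq2 called the gene higher in mouse 2 (adjusted p = 0.0411) while limma-voom did not (adjusted p = 0.206). With the near-alike tumors 2 and 3 of mouse 1 also summed to 1 sample, the fold change was 1.19 by DESeq2, nearly the same. The call therefore rests on the tool. Whether it also rests on those 2 tumors counting as separate samples cannot be decided, because summing them leaves mouse 1 with 1 sample.

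B cell transcripts were scarce in all 6 tumors, and the part of B cells in the *Ly6d* level was not tested. *Cd79a*, which encodes a chain of the B cell receptor complex, had 0.752, 0.791 and 0.546 TPM in mouse 2, and 0.243, 0.685 and 0.354 TPM in mouse 1. The 8 B cell markers together summed to 2.59 to 4.36 TPM in mouse 2 and to 3.07 to 8.29 TPM in mouse 1, 2 of the 8 averaged 1 TPM or more and none was at 0 in every tumor, and *Cd79b* (0.896 to 4.02 TPM) and *Cd22* (0.201 to 2.63 TPM) were the most abundant. Of 19 other Ly6 family genes, 7 averaged 1 TPM or more and 3 were at 0 in every tumor. *Ly6e*, a broadly expressed member, had 812, 1105 and 884 TPM in mouse 2, and 66.1, 1201 and 1179 TPM in mouse 1, so it too was lowest in tumor 1 of mouse 1. *Ly6a*, known as Sca-1 and found on endothelial and blood cells, had 45.9, 227 and 28.5 TPM in mouse 2, and 4.29, 183 and 237 TPM in mouse 1. The endothelial lipase anchor *Gpihbp1* varied far less, between 13.5 and 36.9 TPM. Within this family 7 of the 19 genes were lowest in tumor 1 of mouse 1 and 5 were highest there, some of them from few counts. The shares over all genes with a count were 16.7% and 58.9%, but the 19 include the 3 without a count, which can be neither. Of the 6 that passed the filter on low counts, 0 were called between the mice by edgeR.

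Among genes averaging 5 TPM or more, those whose pattern over the 6 tumors was nearest to that of *Ly6d*, out of 8760 and by the root mean square difference of centred log2(TPM + 1), were *Gstm3* (0.330), *Serpina6* (0.381) and *Cidec* (0.391). *Gstm3*, a glutathione transferase gene, had 1400.4, 1826 and 725 TPM in mouse 2, and 18.4, 1103 and 1079.7 TPM in mouse 1. As with *Ly6d*, tumor 3 was the lowest of mouse 2 and tumor 1 of mouse 1 the lowest of all. The search was not repeated without tumor 1 of mouse 1, so how far these matches rest on it was not tested. The 12 hepatocyte markers, each of which was lowest in tumor 1 of mouse 1, summed to 28065, 26727 and 39813 TPM in mouse 2, and to 1579.7, 47679.9 and 48195 TPM in mouse 1. Their sum moved with *Ly6d* in that tumor but not in tumor 3 of mouse 2, where it was the highest of its mouse and *Ly6d* the lowest, and the part of hepatocyte content in the *Ly6d* level was not tested.

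*Cd24a* encodes a heavily glycosylated GPI-anchored protein of the cell surface that marks progenitor and biliary cells in liver. In mouse 2, tumors 1, 2 and 3 had 0.849, 3.62 and 0.826 TPM, and those of mouse 1 had 237, 15.1 and 14.7 TPM. Every tumor of mouse 2 was below every tumor of mouse 1, and tumor 1 of mouse 1 was 15.6-fold above the highest of the other 5. The counts behind these levels were 26, 99 and 23 in mouse 2, and 6494, 397 and 478 in mouse 1, nearly all of them in the transcript Cd24a-201 (gene on chromosome 10, 43579169 to 43584265). The fold change of mouse 2 over mouse 1 was −4.74 on the log2 scale (SE 1.27, 95% interval −7.84 to −1.64, adjusted p = 0.412 by edgeR), and DESeq2 gave no p-value for it in the 6 tumors. Without tumor 1 of mouse 1 the fold change was −2.65 (SE 0.58, adjusted p = 0.086 by edgeR), and there the gene was called lower in mouse 2 by DESeq2 (−2.66, adjusted p = 0.000391) and by limma-voom (−2.87, adjusted p = 0.0334). With tumors 2 and 3 of mouse 1 summed as well, the fold change was −2.66 by edgeR and −2.65 by DESeq2, nearly the same, and the adjusted p was 0.593 and 0.117 in these tests with 1 sample fewer.

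The nearest patterns to that of *Cd24a* were those of *Cygb* (0.253), *Vim* (0.277) and *St14* (0.285). *Vim*, which encodes the intermediate filament protein of mesenchymal cells, had 8.55, 22.6 and 9.10 TPM in mouse 2, and 1144, 51.9 and 57.1 TPM in mouse 1. *Cygb*, a globin gene of stellate cells in liver, had 0.540, 3.81 and 0.762 TPM in mouse 2, and 191, 9.42 and 9.44 TPM in mouse 1. *St14*, which encodes the epithelial protease matriptase, had 0.143, 0.816 and 0.0628 TPM in mouse 2, and 85.4, 7.10 and 7.61 TPM in mouse 1. Mesenchymal, stellate cell and epithelial genes thus stood side by side in this pattern. All 3 were highest in tumor 1 of mouse 1, as *Cd24a* was, and how far the matches rest on that tumor was not tested.

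*Epcam* and *Prom1*, the other surface markers, were close to the limit of detection. *Epcam*, an epithelial adhesion protein that bile duct cells carry and adult hepatocytes largely lack, was at 0.0288, 0.643 and 0.0634 TPM in mouse 2, and at 1.76, 1.13 and 1.55 TPM in mouse 1. All 3 tumors of mouse 2 were below all 3 of mouse 1, from 1, 20 and 2 counts in mouse 2 and 49, 33 and 57 counts in mouse 1. The fold change was −1.94 on the log2 scale (SE 1.06, adjusted p = 0.567 by edgeR). It was −2.02 without tumor 1 of mouse 1 and −4.04 without tumor 2 of mouse 2, which held most of the counts of its mouse, and neither passed (adjusted p = 0.334 and 0.664 by edgeR).

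*Prom1*, which encodes the pentaspan membrane protein CD133, was at 1.52, 0.435 and 0.0758 TPM in mouse 2, and at 0.337, 0.984 and 1.24 TPM in mouse 1. Its highest and its lowest level were both in mouse 2, so the mice overlapped fully. The fold change was 0.13 on the log2 scale (SE 1.40, adjusted p = 0.977 by edgeR), and its sign was negative with library size as the only scaling (−0.14), without tumor 1 of mouse 1 (−0.34) and without tumor 1 of mouse 2 (−2.12). In tumor 1 of mouse 2 the transcript Prom1-203 held 97.5% of the level, whereas tumor 3 of that mouse had 1 count in all. No direction can be given for this gene.

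Partners of these surface proteins ranged from scarce to abundant. Of 9 genes whose products bind, cut or carry signals from EpCAM or CD24, 7 averaged 1 TPM or more, *Siglecg*, chosen after its values were seen, was the lowest at a mean of 0.0968 TPM, and 0 of the 8 that passed the filter were called by edgeR. *Cd9*, a tetraspanin, had 77.1, 147 and 53.0 TPM in mouse 2, and 21.0, 74.6 and 66.8 TPM in mouse 1. *Psen2*, a catalytic subunit of the gamma-secretase that cuts EpCAM, had 126, 122 and 158 TPM in mouse 2, and 12.8, 164 and 175 TPM in mouse 1, and *Bace1*, another protease gene, ranged between 5.89 and 18.1 TPM. In TPM, *Cd9* and *Psen2* were lowest in tumor 1 of mouse 1, where *Epcam* and *Bace1* were highest. With TPM divided by TMM factors, a scaling for RNA composition, *Epcam* was not highest there. It was at 1.09 TPM in that tumor, and at 1.12 and 1.53 TPM in tumors 2 and 3 of mouse 1. *Bace1* was not read on that scale.

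*Lcn2* encodes lipocalin 2, a secreted protein that binds bacterial siderophores and is made by hepatocytes in the acute phase and by neutrophils. In mouse 2, tumors 1, 2 and 3 had 88.5, 155 and 147 TPM, and those of mouse 1 had 5.0, 117 and 118 TPM. It was evenly high in 5 tumors, with 125 ± 26.6 TPM (SD, n = 5), and the lowest of these had 17.7 times the level of tumor 1 of mouse 1. The 2 mice overlapped, and the fold change was 1.25 on the log2 scale (SE 1.09, adjusted p = 0.709 by edgeR), or 0.69 without tumor 1 of mouse 1 (SE 0.28, adjusted p = 0.255). The transcript Lcn2-201 held 93.9% or more of the level in every tumor (gene on chromosome 2, 32384637 to 32387739).

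Neutrophil markers were low in the same tumors. The 11 genes summed to 13.1 to 27.5 TPM in mouse 2 and to 2.52 to 14.3 TPM in mouse 1, and 2 of the 11 averaged 1 TPM or more and none was at 0 in every tumor. *S100a8* had 9.85, 3.72 and 10.3 TPM in mouse 2, and 0.451, 4.44 and 4.07 TPM in mouse 1, *S100a9* lay between 0.969 and 13.6 TPM and *Csf3r* between 0.316 and 1.38 TPM. Both S100 genes were lowest in tumor 1 of mouse 1, as *Lcn2* was, and the part of neutrophils in the *Lcn2* level was not tested. Hepatic acute phase genes were abundant, with all 17 above a mean of 1 TPM and all 17 lowest in tumor 1 of mouse 1. *Hp*, the haptoglobin gene, had 1399, 2759 and 3127 TPM in mouse 2, and 103, 2967 and 3023 TPM in mouse 1. *Hpx*, which encodes hemopexin, spanned 61.9 to 2515 TPM and the fibrinogen gene *Fgg* 45.4 to 1148 TPM. The edgeR fold change was above 0 for 17 of these 17 genes, and for 6236 of all 13268 genes tested, with a median of 1.09 on the log2 scale against −0.04. Without tumor 1 of mouse 1 it was above 0 for 17 of 17 and for 6850 of all 13374 genes, with a median of 0.54 against 0.01. In either fit 0 of the 17 were called. Of the 12 hepatocyte markers, also lowest in tumor 1 of mouse 1, 11 had a fold change above 0, and 6 without that tumor.

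The genes nearest to *Lcn2* in pattern were *Tmem37* (0.0956), *C4bp* (0.109) and *Smlr1* (0.164), closer than for any of the other 3 genes searched. These distances include tumor 1 of mouse 1, where *Lcn2* was lowest, and were not taken without it. *C4bp*, which encodes a regulator of complement, had 272, 405 and 379 TPM in mouse 2, and 13.3, 298 and 302 TPM in mouse 1. Receptors and partners described for lipocalin 2 were mostly scarce. *Slc22a17* had 0.137, 0.146 and 0.0987 TPM in mouse 2, and 12.4, 0.520 and 0.443 TPM in mouse 1, while *Mc4r*, the melanocortin receptor gene, had 0 TPM in all 3 tumors of mouse 2 and 17.7, 0.258 and 0.206 TPM in mouse 1. *Mmp9*, whose product binds lipocalin 2, had 0.145 to 0.235 TPM in 5 tumors and 0.844 TPM in tumor 1 of mouse 1. *Lrp2*, which encodes the receptor megalin and was chosen after its values were seen, had 0, 0.00732 and 0 TPM in mouse 2, and 0, 0.0857 and 0.101 TPM in mouse 1. Thus 3 of the 4 genes were highest in tumor 1 of mouse 1, where 58.9% of all genes were, and 0 of the 2 that passed the filter were called by edgeR.

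*Spp1* encodes osteopontin, a secreted phosphoprotein that binds integrins and CD44 and is made by bile duct cells and by macrophages. In mouse 2, tumors 1, 2 and 3 had 1.40, 17.6 and 4.17 TPM, and those of mouse 1 had 33.0, 30.4 and 28.7 TPM. The 3 tumors of mouse 1 were nearly equal, tumor 1 included, and all 3 tumors of mouse 2 were below them. The means were 7.73 ± 8.68 TPM in mouse 2 and 30.7 ± 2.16 TPM in mouse 1 (SD, n = 3 each). The fold change was −1.42 on the log2 scale (SE 0.81, 95% interval −3.39 to 0.56, adjusted p = 0.578 by edgeR), and it was −1.53 without tumor 1 of mouse 1 (adjusted p = 0.375) and −2.63 without tumor 2 of mouse 2 (adjusted p = 0.664).

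Macrophage and stellate cell markers were read beside *Spp1*. The 12 macrophage markers, 11 of them averaging 1 TPM or more, summed to 325, 738 and 230 TPM in mouse 2, and to 125, 858 and 864 TPM in mouse 1. Tumor 2 was the highest of mouse 2 for this sum as for *Spp1*. In tumor 1 of mouse 1, however, the sum was the lowest of all while *Spp1* was the highest in TPM. With TPM divided by TMM factors *Spp1* was at 20.5 TPM there, and at 30.1 and 28.3 TPM in tumors 2 and 3 of that mouse. *Lyz2*, the macrophage lysozyme gene, had 56.3, 166 and 52.2 TPM in mouse 2, and 46.1, 177 and 156 TPM in mouse 1, and the complement genes *C1qb* (22.2 to 165 TPM) and *C1qa* (11.5 to 149 TPM) were also lowest in tumor 1 of mouse 1. The 10 stellate cell and fibroblast markers summed to 24.9, 76.0 and 28.0 TPM in mouse 2, and to 92.6, 90.0 and 92.5 TPM in mouse 1, but more of it came from *Acta2* in tumor 1 of mouse 1 than elsewhere. Without *Acta2* the other 9 genes summed to 23.6, 74.0 and 26.0 TPM in mouse 2, and to 42.6, 85.5 and 88.2 TPM in mouse 1, so that the mice overlapped and tumor 1 of mouse 1 did not share the level of tumors 2 and 3. In the full list, *Dcn* (11.4 to 52.2 TPM) and *Reln* (5.41 to 13.8 TPM) were most abundant beside *Acta2*, which had 1.29 to 2.01 TPM in mouse 2 and 50.05, 4.56 and 4.31 TPM in mouse 1. The part of these cells in the *Spp1* level was not tested. The edgeR fold change was below 0 for 8 of the 10 stellate cell genes, and for 7032 of all 13268 genes tested. Without tumor 1 of mouse 1 it was below 0 for 10 of 10 and for 6524 of all 13374 genes (median −0.61 on the log2 scale against 0.01 over all genes). In either fit 0 of the stellate cell genes were called.

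Osteopontin receptor genes were all detected, 7 of 10 averaging 1 TPM or more. *Itgb1* had 48.2, 63.1 and 57.3 TPM in mouse 2, and 200.2, 86.4 and 86.8 TPM in mouse 1, and *Itgb5* had 45.7, 58.2 and 24.2 TPM in mouse 2, and 67.9, 65.3 and 68.2 TPM in mouse 1. *Cd44* had 9.94, 16.5 and 1.51 TPM in mouse 2, and 19.4, 13.5 and 13.8 TPM in mouse 1. For 6 of the 10 receptor genes all 3 tumors of mouse 2 were below all 3 of mouse 1 in TPM, *Itgb1* and *Itgb5* among them and *Cd44* not. This held for 31.3% of all genes and for 41.9% of genes averaging 1 TPM or more. In the edgeR fit, which scales by TMM factors, the log2 fold change was −0.33 for *Itgb1* and 0.01 for *Itgb5*. It was below 0 for 7 of the 9 tested, against 7032 of all 13268 genes, and 0 of the 9 were called. The nearest patterns to *Spp1* were less close, namely those of *Gpnmb* (0.614), *Cachd1* (0.615) and *Shc2* (0.632). *Gpnmb*, a gene of lipid-laden macrophages, had 1.09, 13.5 and 0.646 TPM in mouse 2, and 11.8, 8.63 and 9.70 TPM in mouse 1.

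*Tff3* and *Golm1* had means of about 5 TPM. *Tff3*, which encodes a trefoil peptide of mucosal surfaces, was at 2.54, 9.92 and 6.91 TPM in mouse 2, and at 1.58, 6.20 and 5.52 TPM in mouse 1. Tumor 1 was the lowest of each mouse, the mice overlapped, and the counts were low, between 7 and 44. Mouse 2 over mouse 1, it differed by 1.09 on the log2 scale (SE 0.86, adjusted p = 0.683 by edgeR), or by 0.63 without tumor 1 of mouse 1 (adjusted p = 0.615). Its relatives *Tff1* and *Tff2* stayed under 1 TPM in every tumor, with at most 0.963 TPM and 0.307 TPM.

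*Golm1* was at 5.53, 6.06 and 3.32 TPM in mouse 2, and at 3.24, 6.84 and 6.09 TPM in mouse 1. Over 6 tumors this was the smallest span of the 10 genes, a ratio of 2.11 from the highest over the lowest tumor, but without tumor 1 of mouse 1 the span of *Golm1* was 2.06, above the 1.76 of *Lcn2*, and that of *Tff3* was 3.90. *Golm1* had a fold change of 0.53 on the log2 scale (SE 0.57, 95% interval −0.85 to 1.91, adjusted p = 0.753 by edgeR), or 0.11 without that tumor (adjusted p = 0.807). Its level was divided between 2 coding transcripts, of which Golm1-202 held 95.2%, 54.6% and 67.5% in mouse 2, and 68.8%, 61.8% and 64.5% in mouse 1. Golm1-201 was at 0 in tumor 1 of mouse 1, where Golm1-204, a transcript with no defined coding sequence, held 31.2%, but estimates for single transcripts at this depth are uncertain. The relative *Golm2* had 4.67, 2.21 and 8.09 TPM in mouse 2, and 36.6, 7.50 and 8.51 TPM in mouse 1, and was highest in the tumor in which *Golm1* was lowest.

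The bile duct keratins were at or below the level of a few TPM. *Krt7* was at 0, 0.328 and 0.0308 TPM in mouse 2, and at 3.62, 0.6249 and 0.252 TPM in mouse 1. The mice overlapped, and tumor 1 of mouse 1 was 5.80-fold above the highest of the other 5. The count of 0 in tumor 1 of mouse 2 allows a level of up to 0.0515 TPM (3 counts, counting error only). In tumor 1 of mouse 1 the transcript Krt7-202, annotated as an intron-retaining transcript, held 67.1% of the level and the coding Krt7-201 28.7%. The fold change was −3.36 on the log2 scale (SE 1.53, 95% interval −7.07 to 0.36, adjusted p = 0.505 by edgeR), and it was −1.51 without tumor 1 of mouse 1 (adjusted p = 0.493) and −5.17 without tumor 2 of mouse 2 (95% interval −10.21 to −0.12, adjusted p = 0.664).

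*Krt19* was at 1.83, 0.712 and 0.241 TPM in mouse 2, and at 5.10, 0.814 and 0.903 TPM in mouse 1. It was highest in tumor 1 of mouse 1 and next highest in tumor 1 of mouse 2, so the mice overlapped. In tumor 1 of mouse 2 Krt19-203, a transcript annotated with no defined coding sequence, held 59.6% of the level, and in tumor 3 of that mouse all of its 3 counts. Its fold change was −0.62 on the log2 scale (SE 0.93, adjusted p = 0.821 by edgeR) and turned to 0.15 without tumor 1 of mouse 1.

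The keratins of hepatocytes showed how far the duct keratins lay below an epithelial filament gene of these tumors. *Krt8* had 523, 530.0 and 378 TPM in mouse 2, and 21.7, 671 and 686 TPM in mouse 1, and its partner *Krt18* had 392, 433 and 297 TPM in mouse 2, and 37.6, 487 and 442 TPM in mouse 1. In tumor 1 of mouse 1, *Krt8* and *Krt18* were lowest while *Krt7* and *Krt19* were highest. *Krt23*, a keratin gene of injured liver, had 12.0, 5.58 and 2.31 TPM in mouse 2, and 581, 29.3 and 27.9 TPM in mouse 1, which exceeded *Krt8* in tumor 1 of mouse 1. Like *Cd24a* it did not overlap between the mice, and its fold change was −4.02 on the log2 scale (SE 1.32, adjusted p = 0.412 by edgeR) or −1.63 without tumor 1 of mouse 1 (adjusted p = 0.198). Of the 12 other keratins examined, 6 averaged 1 TPM or more and 2 were at 0 in every tumor. Of those with a count, 6 were highest in tumor 1 of mouse 1 (58.9% of all genes with a count), and 0 of the 7 tested were called.

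**Figure D2:**
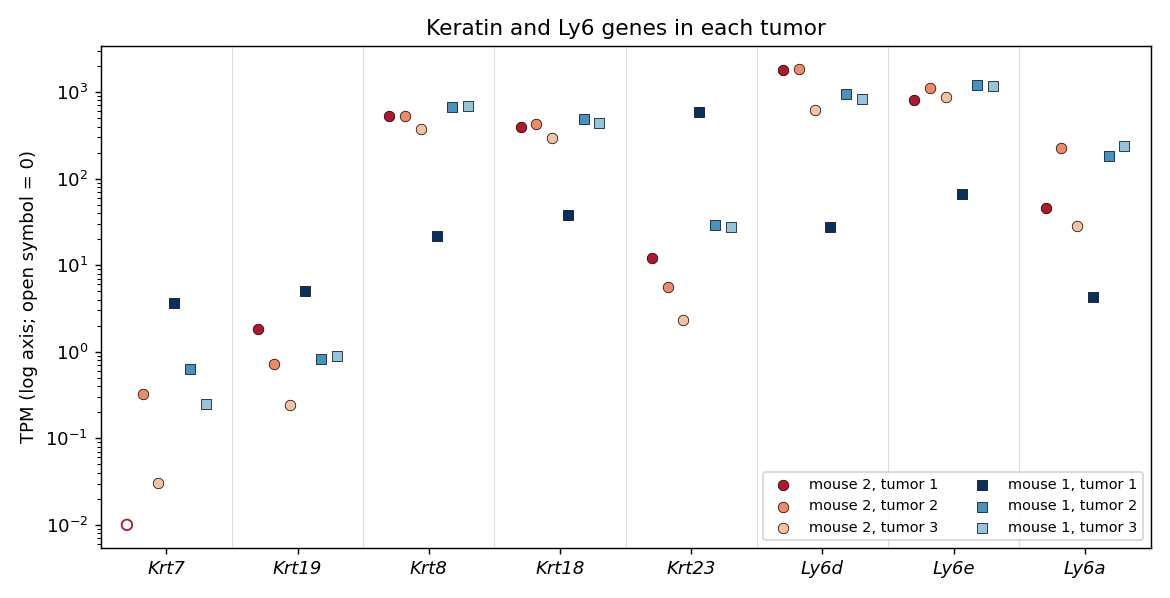
Level in TPM on a log axis of the keratin genes *Krt7*, *Krt19*, *Krt8*, *Krt18* and *Krt23* and of the Ly6 genes *Ly6d*, *Ly6e* and *Ly6a*, with circles for tumors of mouse 2, squares for tumors of mouse 1 and an open symbol for a level of 0. In tumor 1 of mouse 1, *Krt8* (21.7 TPM), *Krt18* (37.6 TPM) and the Ly6 genes are at their lowest, and *Krt7*, *Krt19* and *Krt23* (581 TPM) at their highest.

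Other cholangiocyte and progenitor markers were read against the duct keratins and *Epcam*. The 18 cholangiocyte markers, 10 of them averaging 1 TPM or more and none at 0 in every tumor, summed to 124, 167 and 64.0 TPM in mouse 2, and to 123, 251 and 246 TPM in mouse 1. Most of this sum came from *Aqp1* (10.5 to 89.5 TPM), *Anxa4* (22.7 to 70.8 TPM) and *Cdh1*, genes that other liver cells use as well. *Cdh1*, the E-cadherin gene, had 14.4, 27.0 and 0.288 TPM in mouse 2, and 0.989, 43.7 and 39.2 TPM in mouse 1, and was thus low both in tumor 3 of mouse 2 and in tumor 1 of mouse 1. Of the 13 cholangiocyte markers tested, 6 had a fold change above 0 and 7 below, where all genes had 6236 above and 7032 below. Without tumor 1 of mouse 1 these were 2 and 11, and 6850 and 6524 for all genes. In either fit 0 of the 13 were called. Of 15 progenitor markers, 12 averaged 1 TPM or more and 0 of 12 tested were called. They summed to 88.2, 189 and 76.5 TPM in mouse 2, and to 1297, 165 and 174 TPM in mouse 1. In tumor 1 of mouse 1, 1144 TPM of this sum came from *Vim*. In that tumor 6 of the 15 were highest (58.9% of all genes) and 4 lowest (16.7% of all genes). *Tnfrsf12a*, the receptor of the regenerative cytokine TWEAK, had 27.7, 70.0 and 34.2 TPM in mouse 2, and 13.7, 37.8 and 38.5 TPM in mouse 1, and *Klf6* stayed between 12.8 and 17.7 TPM.

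**Figure D3:**
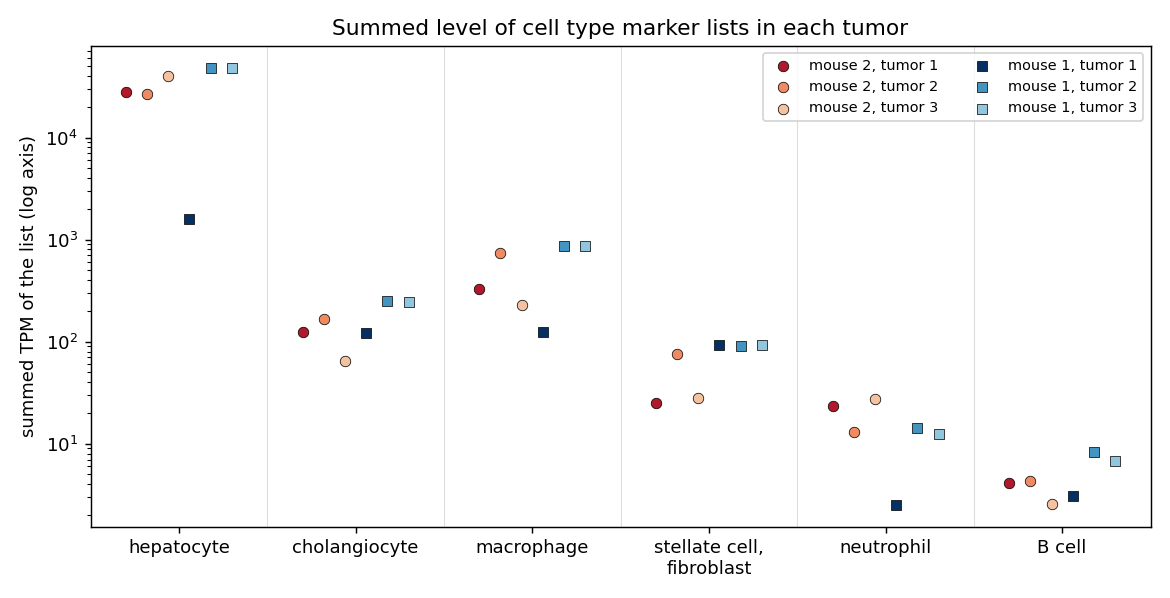
Summed TPM, on a log axis, of the marker lists of hepatocytes (12 genes), cholangiocytes (18), macrophages (12), stellate cells and fibroblasts (10), neutrophils (11) and B cells (8) in each tumor, with circles for mouse 2 and squares for mouse 1. The hepatocyte sum was 26727 to 39813 TPM in mouse 2, and 1579.7 TPM in tumor 1, 47679.9 TPM in tumor 2 and 48195 TPM in tumor 3 of mouse 1.

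Over the 10 genes, the position of tumor 1 of mouse 1 split the set. Of the members, 5 had their highest level there (*Cd24a*, *Spp1*, *Epcam*, *Krt7* and *Krt19*), where 58.9% of all genes had theirs, and 4 had their lowest level there (*Ly6d*, *Lcn2*, *Golm1* and *Tff3*), against 16.7% of all genes. Among genes averaging 1 TPM or more, 3 of 7 members and 62.6% of genes were highest there, and 4 of 7 members and 21.8% of genes were lowest. With TPM divided by TMM factors, a scaling for RNA composition, that tumor had the highest level of 3 members (*Cd24a*, *Krt7* and *Krt19*), and *Spp1* was at 20.5 TPM there, 30.1 TPM in tumor 2 and 28.3 TPM in tumor 3 of the same mouse. The 4 members with the lowest level there were the same. *Prom1* was at neither end. In log2(TPM + 1), 7 members had their highest and lowest tumor at least 2 apart (32% of all genes), but without tumor 1 of mouse 1 this held for *Cd24a* and *Spp1* alone (3.35% of all genes). Among genes averaging 1 TPM or more, such a gap was found in 46.9% of genes and 6 of 7 members. Without that tumor these were 5.02% and 2 of 7.

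Between the mice, all 3 tumors of mouse 2 were below all 3 of mouse 1 for 3 of the 10 members (*Cd24a*, *Spp1* and *Epcam*), which is close to the 31.3% of all genes of which this held, and above them for 0 of 10, against 1.49% of all genes. Among genes averaging 1 TPM or more, 2 of 7 members and 41.9% of genes were below, and 0 of 7 members and 1.75% of genes above. All 10 members passed the filter on low counts, although *Epcam* and *Krt7* had at least 10 counts in 3 tumors of mouse 1 and in only 1 tumor of mouse 2. In the edgeR test over 6 tumors 0 of 10 members and 0% of the 13268 genes tested were called at an adjusted p under 0.05, and at an unadjusted p under 0.05 there were 1 of 10 members (*Cd24a*) and 10.9% of all genes. Over the same 6 tumors limma-voom called 0 genes, with 708 at an unadjusted p under 0.05, and DESeq2 called 0.691% of genes as higher and 0.631% as lower in mouse 2, with 0 members among them. Without tumor 1 of mouse 1, edgeR called 0.419% of genes as higher and 0.837% as lower, again with 0 members, and 2 of 10 members (*Ly6d* and *Cd24a*) and 20% of all genes had an unadjusted p under 0.05. There DESeq2 called 4.99% as higher, *Ly6d* among them, and 3.79% as lower, *Cd24a* among them, and limma-voom 1.32% as higher, with 0 members, and 2.24% as lower, with *Cd24a*. The fold change was above 0 for 5 members and below 0 for 5, with a median of −0.24 on the log2 scale against −0.04 over all genes tested, and −0.12 against 0.01 without tumor 1 of mouse 1. TMM moved all fold changes up by a median of 0.52 on the log2 scale relative to library size alone, and by 0.26 without that tumor, so a fold change smaller than that can change sign with the scaling.

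**Figure D4:**
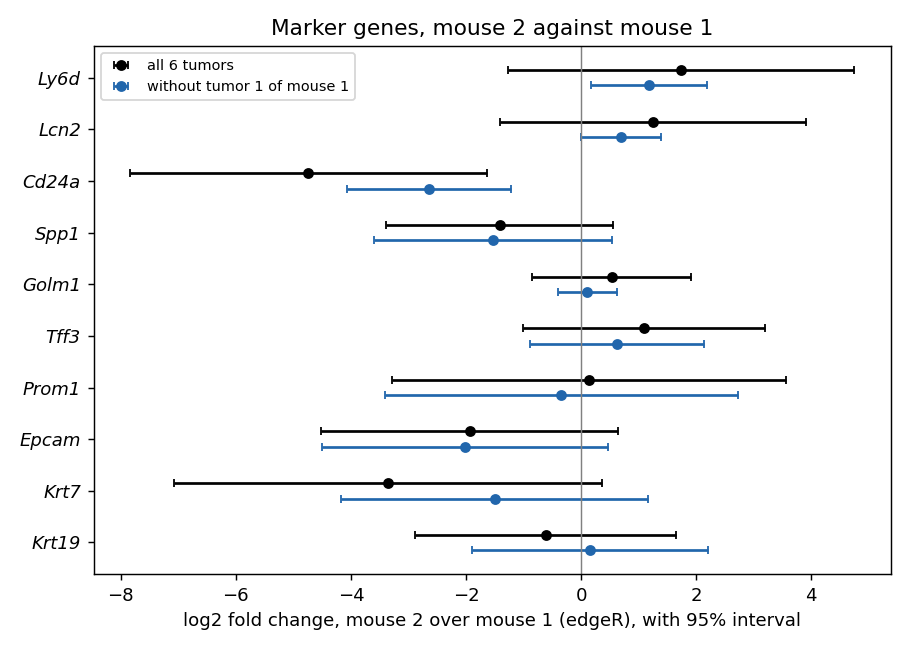
Fold change of each marker gene, mouse 2 over mouse 1, on the log2 scale with its 95% interval from edgeR, over all 6 tumors (black) and without tumor 1 of mouse 1 (blue). The interval excludes 0 for *Cd24a* alone over 6 tumors (−7.84 to −1.64) and for *Cd24a* and *Ly6d* without that tumor, before adjustment over all genes.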

How the data were processed

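RNAseq of 6 excised CMRtdT liver tumors, 3 from mouse 2 and 3 from mouse 1 as the labels name them, was analysed and no tumor was left out. The extraction protocol names poly A enriched mRNA libraries. The estimated counts per transcript, as deposited by the authors, come from assigning read pairs to transcripts, need not be whole and carry no normalization. TPM, likewise deposited by the authors, is scaled for depth and effective transcript length and sums to the same total in each tumor. The tables have the layout of Salmon. The submitters' processing notes list the build GRCm38 and the tools BWA and Picard, and for the release of the transcript index the sources used here give nothing.

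Each transcript ID, without its version, was matched to GENCODE vM39 for names alone, 114813 with a match and 1733 without, which held 0.373% to 0.68% of the counts. Counts and TPM were summed per gene, and Ensembl transcript names are used. Gene positions came from RefSeq on GRCm38.p6. Mouse 2 was compared with mouse 1 on rounded gene counts with edgeR 4.0.16 (quasi-likelihood test, TMM factors, filterByExpr, two-sided, Benjamini-Hochberg adjustment over all genes tested, threshold 0.05) in R 4.3.3. Alternatives were DESeq2 1.42.0, limma-voom (limma 3.58.1), other scalings, no filter, the tumor number as a block and each tumor left out. Summing tumors 2 and 3 of mouse 1, and other tools without tumor 1 of mouse 1, were chosen after seeing the data. The scripts were tested on simulated data.

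The members and lists were chosen with earlier results of these data known. Named genes are all members, the 3 genes of the highest mean TPM in each list, and, for the 4 members of the highest mean, the 3 nearest patterns among genes averaging 5 TPM or more. Limits from a count of 0 use 3 counts and cover counting error only.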

Additional observations from a re-analysis of the deposited data

Results flagged for a closer look

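Dixon's ratio (the gap between the most extreme tumor and its neighbour, divided by the whole range) was computed on log2(TPM + 1) for each of the 10 members and set against its 95% critical value for 6 tumors. Chance alone passes that value in about 1 in 20 groups, but in these tumors 45.3% of the 19390 genes with a count passed it. Of all these genes, 32.3% passed with tumor 1 of mouse 1 highest and 5.93% with it lowest. With both ends pooled, 3 of 10 members is no more than genes in general show. However, *Ly6d* and *Lcn2* passed at the lowest end, the less common one. For *Ly6d* the ratio was 0.740, with tumor 1 of mouse 1 lowest at 27.5 TPM. For *Lcn2* it was 0.829, with the same tumor lowest at 5.0 TPM. For *Krt7* it was 0.683, with that tumor highest at 3.62 TPM. *Cd24a*, although 15.6-fold higher in that tumor than in any other, had a ratio of 0.552, because the other 5 tumors were themselves far apart.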

How the results depend on the processing

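The number of genes called between the mice, 0 by edgeR over 6 tumors, was 176 by DESeq2 and 0 by limma-voom, with other size factors, with library size alone and without a filter. Leaving out each tumor in turn gave 0 to 168 genes, the 168 arising without tumor 1 of mouse 1, and 0 members. The following alternatives without that tumor were chosen after seeing the data: DESeq2 called 1318 genes and 2 members, limma-voom 477 genes and 1 member, edgeR with library size alone 151 genes, and with tumors 2 and 3 of mouse 1 summed edgeR called 1 gene and DESeq2 199 genes, with 0 members in these 3. With TMM-scaled TPM, 3 members rather than 5 were highest in tumor 1 of mouse 1. Same-numbered tumors of the 2 mice did not deviate together (r = 0.0252, −0.0431 and 0.0494 for numbers 1, 2 and 3), so the numbers do not pair them, and with the tumor number as a replicate block 0 genes were called by edgeR, with 800 at an unadjusted p under 0.05 against 1449 without the block. The sign turned for 3 members, none of them called. For *Prom1* the log2 fold change was −0.64 by limma-voom, −0.14 with library size alone, −1.16 with the block and −2.12 to 0.70 with each tumor left out, and without tumor 1 of mouse 1 −0.35 by DESeq2, −1.67 by limma-voom, −0.57 with library size alone and −0.36 with tumors 2 and 3 summed by edgeR and by DESeq2. For *Krt19* it was −1.38 to 0.15 with each tumor left out, and without tumor 1 of mouse 1 0.14 by DESeq2, 0.13 summed by edgeR and 0.14 summed by DESeq2. For *Golm1* it was −0.13 without that tumor with library size alone. The cause of these changes was not tested. The other 7 members kept their sign under every alternative run. Dixon's ratio of *Krt7* was 0.452 with a pseudocount of 0.1, and that of *Cd24a* 0.667 with a pseudocount of 5. Depth limits *Tff3*, *Prom1*, *Epcam*, *Krt7* and *Krt19*, which had under 10 counts in 1 or more tumors.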

Other observations

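Other liver cancer markers, secreted or on the surface, were also measured. Of 13 genes, 10 averaged 1 TPM or more, and 0 of the 10 tested were called between the mice by edgeR. In tumor 1 of mouse 1, 7 of the 13 were highest (58.9% of all genes) and 3 lowest (16.7% of all genes). *Anxa2*, the annexin A2 gene, had 174, 226 and 125 TPM in mouse 2, and 272, 175 and 176 TPM in mouse 1. In TPM its highest level was thus in tumor 1 of mouse 1. Its edgeR fold change with TMM factors, mouse 2 over mouse 1, was 0.47 on the log2 scale (adjusted p = 0.591 by edgeR). It was 0.49 without that tumor (adjusted p = 0.216 by edgeR). *Sparc*, a matricellular protein gene, had 24.0, 35.7 and 30.6 TPM in mouse 2, and 150.3, 53.1 and 48.9 TPM in mouse 1. *Ceacam1*, an adhesion molecule gene of hepatocyte canaliculi, had 30.2, 26.4 and 32.3 TPM in mouse 2, and 0.873, 38.9 and 43.2 TPM in mouse 1, and so was low in tumor 1 of mouse 1, as *Ly6d* and *Lcn2* were.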
